A study of Anopheles gambiae with 104 samples.

Results

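RNA levels in the bodies of female Anopheles gambiae, the main African vector of human malaria, were compared between subjective day and subjective night in constant dark. The comparison was defined by the labels: body arrays collected at circadian time (CT) 4, 8, 28 and 32 h were day, and those collected at CT16, CT20, CT40 and CT44 were night. This gave 8 day and 8 night arrays, 16 of the 104 in the series, with 2 arrays at each of 8 time points. The mosquitoes were mated females of the Pimperena S form that had taken no blood meal and were 7 to 9 days old at the start. The bodies, with their appendages, came from pools of 20 to 30 mosquitoes whose heads were taken off and measured separately. CT0 is the subjective dawn carried over from the light:dark cycle in which the mosquitoes were held before. Hours since lights off were 16, 20, 40 and 44 by day and 28, 32, 52 and 56 at night. Night thus came later than day within each cycle, and time in the dark was not separated from the hour of day. Bodies of mosquitoes that saw light and dark in alternation (LD, 11 h at full light, with a dawn and a dusk of 1 h; times as Zeitgeber time, ZT) and heads kept in constant dark (DD) served for comparison, with 16 arrays each at matching hours. Whether the 2 arrays of each time point hold different pools is not stated in the labels, so the time point mean was the unit, and every p-value measures only the spread between these time points.

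In insects the circadian clock is a feedback loop in which the proteins CLOCK and CYCLE switch on genes such as period and timeless, whose products then repress CLOCK and CYCLE. Light resets the loop, and in constant dark it runs on by itself, so that a difference between subjective day and night is not a direct response to light. The body of a mosquito without its head holds flight muscle, midgut, fat body, ovaries and Malpighian tubules, tissues that use, store and excrete the products of a meal, and in flies many such tissues have clocks of their own. Anopheles gambiae is active and seeks hosts at night.

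The arrays carried probe sets for the mosquito and for the parasite Plasmodium falciparum, and values were on a log2 scale after GCRMA normalization. A mosquito probe set was tested if its mean over all 52 body arrays was above 3.78, the 95th percentile of the parasite probe sets, which 7325 probe sets passed. The values of the 16 arrays ran from 0.80 to 15.43, and array medians from 2.95 to 3.12. Values of the 2 arrays of a time point correlated at 0.986 to 0.993 across probe sets, and the standard deviation of their difference was 0.30 at CT40 and 0.43 at CT8, the lowest and the highest. The files pair no probe set with a gene, so the largest changes are given by probe set identifier, whose second field names the chromosome arm, and body markers could not be checked.

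Between subjective day and night, 96 probe sets (1.31% of the 7325 tested) differed in the bodies, and more of them were higher at night than by day. The night group held 72 probe sets (0.983%) and the day group 24 (0.328%), at an adjusted p of 0.05 or less by limma with Benjamini-Hochberg adjustment. The night group was higher at night by a median of 1.71-fold, with quartiles of 1.52 and 2.19 and a range of 1.30 to 13.97. The day group was higher by day by a median of 1.95-fold, with quartiles of 1.67 and 2.75 and a range of 1.35 to 5.93. Over all probe sets tested the median change was 1.09-fold in either direction, the median night minus day difference was 0.01 on the log2 scale, and 52.7% had the higher mean at night. With a measure of RNA integrity as a covariate, the 3′ minus 5′ difference of Gapdh, 0 passed limma's test, and 560 were at an unadjusted p under 0.05. In pooled bodies, fewer cells of a type and less RNA per cell cannot be told apart.

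Most changes were under 2-fold. Of the night group, 54 changed at least 1.5-fold, 24 at least 2-fold and 7 at least 4-fold, and 6 had a day mean at or under the detection limit of 3.78. Of the day group, 20 changed at least 1.5-fold and 11 at least 2-fold, and no night mean fell under that limit. The median level over the 8 time points was 7.69 for the night group and 8.54 for the day group. Among all tested probe sets 104 changed at least 2-fold, of which 35 passed the test and 69 did not.

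The number that passed was smaller with a measure of RNA integrity in the fit, and smaller without single time points. The 3′ minus 5′ difference of Gapdh, a glycolytic enzyme whose control probe sets report how complete the labelled RNA is, was 3.42 at CT4, 3.54 at CT8, 4.39 at CT28 and 3.71 at CT32 by day. At night it was 4.83 at CT16, 4.56 at CT20, 4.19 at CT40 and 4.59 at CT44. The night mean of 4.54 ± 0.26 (SD, n = 4) was 0.78 above the day mean of 3.77 ± 0.43 (SD, n = 4), with CT28 inside the range of the night time points, and the difference did not pass the exact two-sided permutation test (p = 0.0571, adjusted p = 0.171 over 3 measures; the smallest p possible was 0.0286). For actin, the cytoskeletal protein, the difference was 2.47 ± 0.26 by day and 2.81 ± 0.11 at night (SD, n = 4 each; exact permutation p = 0.114, adjusted p = 0.171). For the spike-in dap it was 2.04 ± 0.38 and 2.34 ± 0.27 (SD, n = 4 each; exact permutation p = 0.314). With the Gapdh difference as a covariate, limma's lowest adjusted p was 0.0827. In that fit all 96 kept their direction with an unadjusted p under 0.05, their median difference was 1.00 times the one without the covariate, and their median standard error went from 0.136 to 0.210. Without CT40 18 probe sets passed, without CT8 21, and without 1 of the other time points between 45 and 64.

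**Figure D1:**
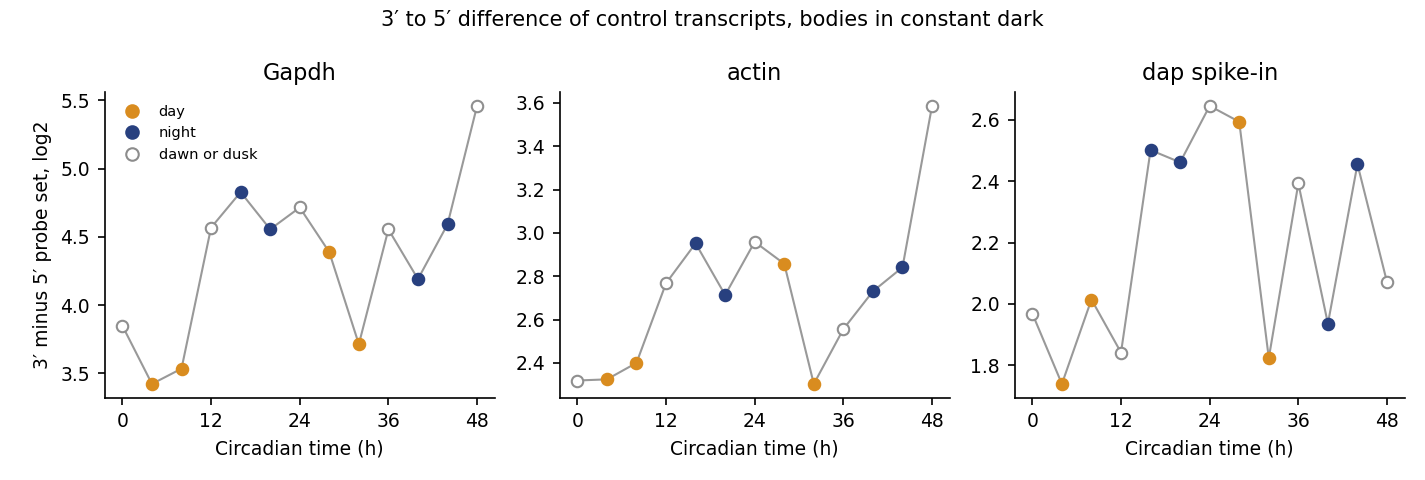
The 3′ minus 5′ difference (log2) of Gapdh, actin and the dap spike-in in bodies in constant dark is plotted against circadian time in h, each point the mean of 2 arrays, for day (orange), night (blue) and dawn or dusk (open). The Gapdh difference was at most 3.71 at 3 of the day time points and 4.39 at CT28, against 4.19 to 4.83 at night, and was highest at CT48.

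The Gapdh 5′ probe set itself was 9.35, 9.41, 8.58 and 9.27 at CT4, CT8, CT28 and CT32 and 8.06, 8.32, 8.76 and 8.08 at CT16, CT20, CT40 and CT44. Its night minus day difference was -0.84, with CT28 below CT40. The exact permutation test gave p = 0.0571 for it (adjusted p = 0.0857 over 6 control probe sets). For the Gapdh 3′ probe set the difference was -0.07 (exact permutation p = 0.486 before adjustment). For the middle Gapdh probe set it was -0.43, and day and night did not overlap (exact permutation p = 0.0286, adjusted p = 0.0857). The actin 3′, middle and 5′ probe sets were at -0.21, -0.24 and -0.54. None of the 6 passed after adjustment. Probe sets for the parasite, which these mosquitoes should not carry, gave 0 of 4502 passing limma's test, with 65 at an unadjusted p under 0.05, or 1.44%. By the definition of the detection limit 95% of them lie at or under it. Their count is therefore no check on probe sets with signal. Among the tested mosquito probe sets 1123, or 15.3%, were under the same unadjusted limit, 669 of them higher at night.

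The 4 probe sets named for this comparison had the 2 largest changes in each direction. Ag.2R.93.0_CDS_at was at 3.60, 4.86, 3.52 and 5.78 at the day time points CT4, CT8, CT28 and CT32. At night it was at 8.36, 8.52, 8.47 and 7.64 at CT16, CT20, CT40 and CT44. Every night time point lay above every day time point, and within the day it was higher at CT8 and CT32 than at CT4 and CT28 in both cycles. The night excess was 13.97-fold (log2 difference 3.80, SE 0.48, limma adjusted p = 0.0136).

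Ag.3L.199.0_CDS_at was likewise low throughout the day, at 3.68, 4.30, 3.91 and 4.88, and stood at 7.56, 7.62, 7.51 and 7.06 at night. The groups did not overlap, and the night values were closer to each other than the day values. It was 9.47-fold higher at night (log2 difference 3.24, SE 0.25, limma adjusted p = 0.00357). At dusk Ag.2R.93.0_CDS_at was already at 7.21 (CT12) and 7.53 (CT36), while Ag.3L.199.0_CDS_at was at 3.82 and 5.55.

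Of the probe sets higher by day, Ag.2R.2139.0_CDS_at was at 10.88, 10.49, 10.56 and 10.03 by day and at 8.32, 7.45, 7.37 and 8.54 at night. All day values lay above all night values, and the lowest night values fell at CT20 in the first cycle and at CT40 in the second. It was 5.93-fold higher by day (log2 night minus day -2.57, SE 0.29, limma adjusted p = 0.00909).

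Ag.3R.1492.2_at was at 7.75, 8.27, 8.14 and 7.97 by day and at 5.11, 6.15, 4.92 and 6.94 at night. Its night values were spread widely and were lower early in the night than late in both cycles, without reaching the day values. It was 4.77-fold higher by day (log2 night minus day -2.25, SE 0.41, limma adjusted p = 0.0387). It was the least stable of the 4, and failed the threshold in 11 of 21 alternative settings, whereas all of the 4 failed it with the Gapdh covariate.

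**Figure D2:**
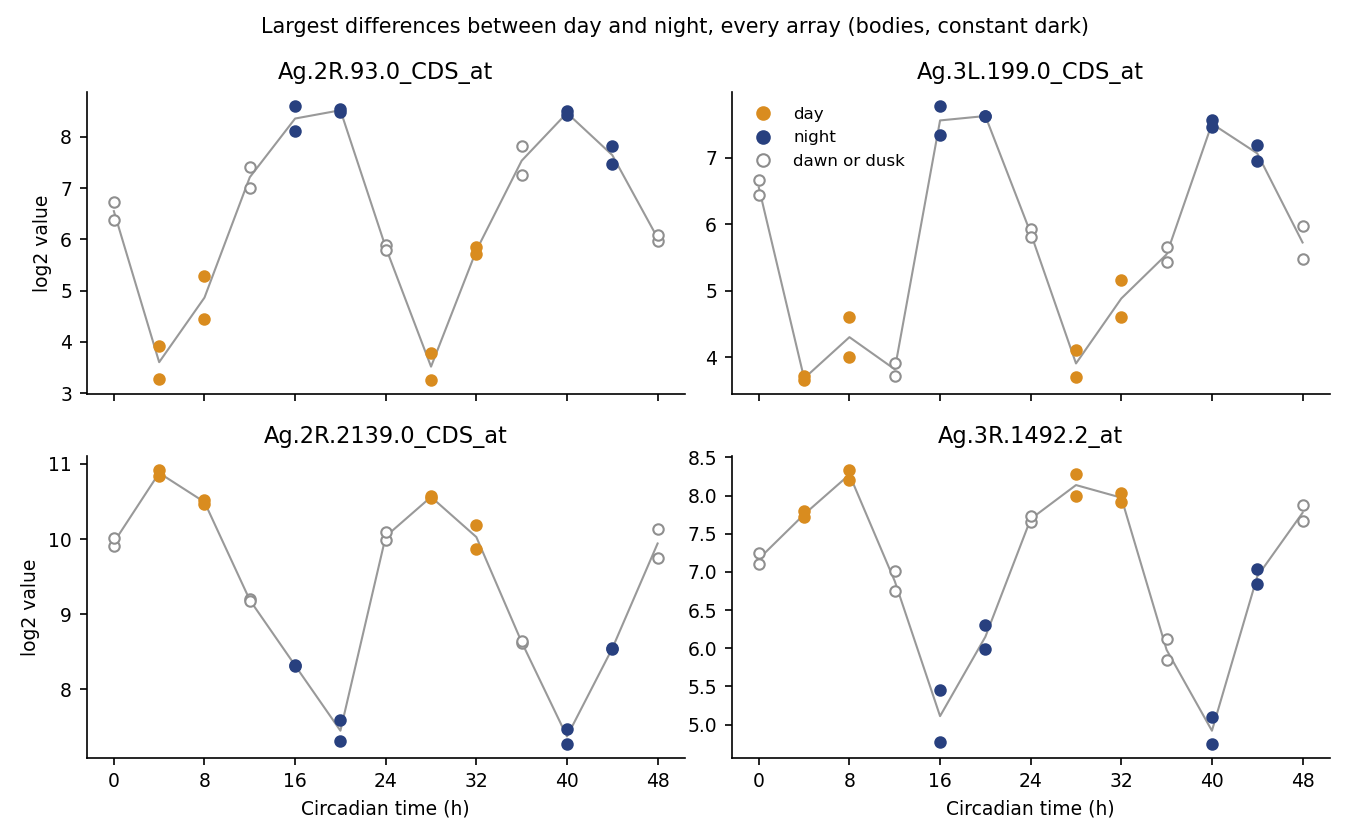
Log2 values of Ag.2R.93.0_CDS_at, Ag.3L.199.0_CDS_at, Ag.2R.2139.0_CDS_at and Ag.3R.1492.2_at in bodies in constant dark against circadian time in h, with 1 point per array and a line through the time point means (day orange, night blue, dawn or dusk open; each panel has its own value axis). In each panel the 8 day arrays lie apart from the 8 night arrays.

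The test chose probe sets whose day and night differ, and so 96 of 96 had day and night time points that did not overlap, against 683 of the 7325 tested (9.32%), from which nothing is read. On the level of single arrays, 66 of the 96 had all 8 day arrays apart from all 8 night arrays, 46 in the night group and 20 in the day group, against 130 of all tested (1.77%). The means of these same arrays chose the 96, so nothing is read from this count either.

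Both cycles in the dark showed the difference. The median night excess of the night group was 0.79 (log2) in the first cycle, CT4 to CT20, and 0.78 in the second, CT28 to CT44. For the day group the median day excess was 0.98 and 0.97. The first cycle was the larger in 39 of the 72 night probe sets and in 16 of the 24 day probe sets. Ag.2R.93.0_CDS_at differed by 4.20 in the first and 3.40 in the second cycle, Ag.3L.199.0_CDS_at by 3.60 and 2.89, and Ag.2R.2139.0_CDS_at by -2.80 and -2.33. No probe set passed limma's test of the difference between cycles (0 of 7325, with 368 at an unadjusted p under 0.05 and a lowest adjusted p of 0.320). Since both cycles entered the choice of the probe sets, the agreement in sign between them is not independent of it.

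Within day and within night, no probe set passed the test of the early against the late hour. Between CT4 with CT28 and CT8 with CT32, 0 probe sets passed limma's test (539 at an unadjusted p under 0.05, lowest adjusted p 0.0796), and between CT16 with CT40 and CT20 with CT44, 0 passed (450 unadjusted, lowest adjusted p 0.425). Taking means by hour of the day, the night group had its highest value at hour 16 in 40 probe sets and at hour 20 in 32. Its lowest value came at hour 4 in 34 and at hour 8 in 38. In the day group the highest value came at hour 4 in 9 and at hour 8 in 15. Its lowest value came at hour 16 in 19 and at hour 20 in 5.

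At dawn and dusk, which the comparison left out, both groups lay between their day and night levels on the median. Each probe set was given a position, with 0 at its day mean and 1 at its night mean. At dawn (CT0, CT24 and CT48) the night group stood at a median of 0.602 with quartiles of 0.363 and 0.737, and at dusk (CT12 and CT36) at 0.638 with quartiles of 0.366 and 0.817. Its members lay about equally often nearer the night level at dawn (42 of 72) and at dusk (46 of 72), and 27 did so at both, 19 at dusk alone, 15 at dawn alone and 11 at neither.

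The day group stood nearer its day level at dawn and nearer its night level at dusk. The medians were 0.368 at dawn, with quartiles of 0.214 and 0.518, and 0.676 at dusk, with quartiles of 0.453 and 0.847. At dawn 6 of 24 were past the midpoint towards the night level and at dusk 17 of 24. Ag.2R.2139.0_CDS_at was at 0.199 at dawn and 0.616 at dusk, and Ag.3R.1492.2_at at 0.217 and 0.712. Ag.3L.199.0_CDS_at went the other way, with 0.571 at dawn and 0.151 at dusk. These positions were not tested.

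**Figure D3:**
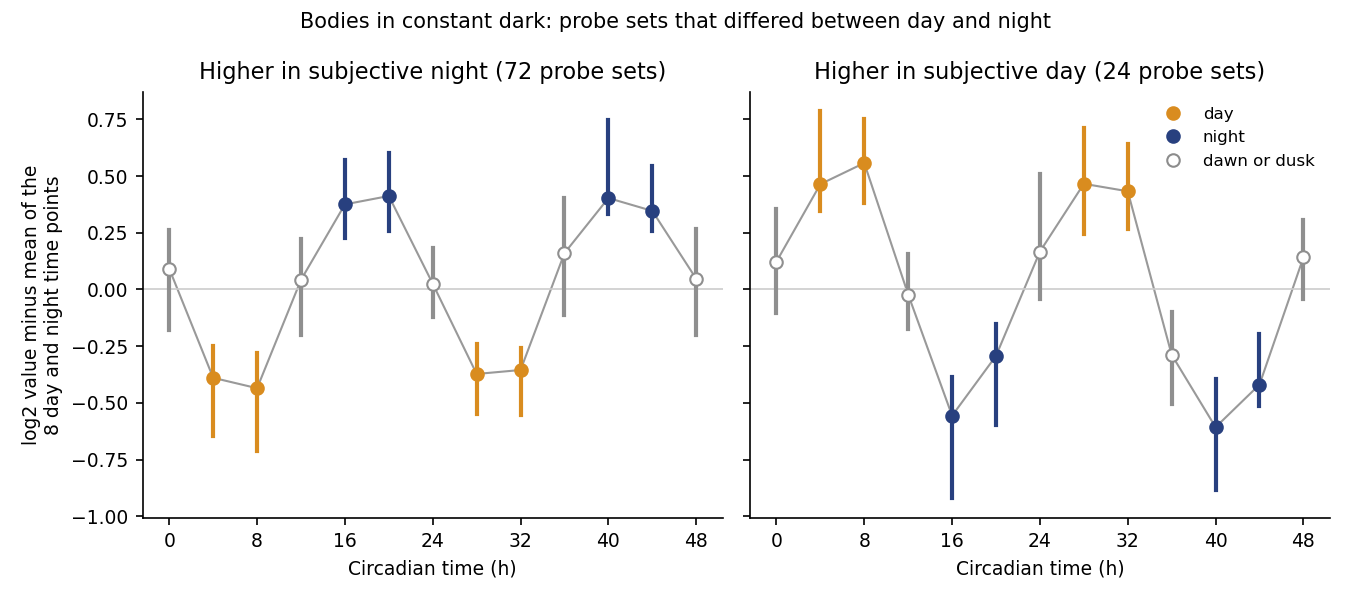
Median (points) and quartiles (bars) of the log2 value of the 72 probe sets higher at night (left) and the 24 higher by day (right) are shown against circadian time in h, each probe set taken relative to its mean over the 8 day and night time points. Day is orange, night blue and dawn or dusk open. The day and night points lie apart because the probe sets were chosen for that. The dawn and dusk points, which entered only the filter on the mean of all body arrays, lie between them.

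Bodies kept in a light:dark cycle, which share no arrays with those in constant dark, showed the same direction for most of these probe sets. In LD 550 probe sets (7.51% of those tested) differed between day and night, 217 of them higher at night and 333 by day. That split depended on the scaling, with 268 and 299 after quantile normalization and 312 and 234 after median centring. Of the 96 that passed in DD, 46 passed in LD, 45 of them in the same direction. These 45 are 46.9% of the DD list and 8.18% of the LD list. The sign was the same in 82 of the 96, or 85.4%, against 54.7% of all tested probe sets.

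The day group held its direction in LD throughout, with 24 of 24 of the same sign, 16 of them passing, and a median day excess of 0.84 against 0.96 in DD. The night group was of the same sign in 58 of 72, with 29 passing, and its median night excess was 0.46 in LD against 0.77 in DD. In 66 of the 96 the difference was smaller in LD. The DD values chose the list, and LD values entered the choice only through the filter on the mean of all body arrays. Conversely, of the 550 that passed in LD, 449 had the same sign in DD, with a median difference of 0.78 in LD and 0.22 in DD.

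The 4 probe sets named for day against night, the 2 largest changes in each direction, passed in LD as well. The night excess of Ag.2R.93.0_CDS_at was 2.33 in LD (SE 0.19, limma adjusted p = 0.000129), where its mean was 3.11 ± 0.38 by day and 5.43 ± 0.20 at night (SD, n = 4 time points each). Ag.3L.199.0_CDS_at was 3.76 higher at night (SE 0.30, limma adjusted p = 0.000121), and both its day mean of 7.70 and its night mean of 11.47 were above those in DD, 4.19 and 7.44. Ag.2R.2139.0_CDS_at and Ag.3R.1492.2_at were lower at night by -2.76 and -2.21. None of the 4 passed the test of a difference between regimes (limma adjusted p = 0.224, 0.564, 0.815 and 0.971 in the order named). Ag.2R.86.0_CDS_at, named after its values were seen, had a night excess of 3.03 in DD, more than either day probe set changed. Its night excess in LD was 0.09 and did not pass (limma adjusted p = 0.475). The difference between regimes did pass (limma adjusted p = 0.000288). Its DD day mean of 3.27 was under the detection limit.

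A single probe set passed in both regimes in opposite directions. Ag.2L.279.0_CDS_at, named because of this after its values were seen, had means of 9.56 by day and 10.85 at night in DD and of 7.53 and 6.96 in LD. It was 2.46-fold higher at night in DD (log2 difference 1.30, SE 0.15, limma adjusted p = 0.00909) and 1.48-fold higher by day in LD (log2 night minus day -0.57, SE 0.10, limma adjusted p = 0.00941). The difference between regimes was 1.87 on the log2 scale (limma adjusted p = 2.17e-05).

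Between the regimes themselves, 107 probe sets (1.46%) differed in how far night lay from day. Of these, 94 had passed in LD, 86 of them in LD alone, and 15 had passed in DD, 7 of them in DD alone. The median absolute difference of the 107 was 1.48 in LD and 0.21 in DD, and 14 of them had a mean over the DD body time points at or under the detection limit, and so were tested through their LD values. Both regimes gave the same sign with the larger difference in LD in 55 and in DD in 2, and opposite signs in 50, of which 38 were larger in LD. Among the 15 that had passed in DD, 13 were of the night group and 2 of the day group. Taken in the direction in which each passed in DD, the difference was larger in DD for 8 of these 13 and for 0 of these 2. Of the 50 that passed in DD and not in LD, 7 passed the test of the difference, so for the other 43 a difference between regimes was not shown. In LD bodies the Gapdh 5′ probe set had a mean of 10.11 by day and 10.66 at night, against 9.15 and 8.31 in DD. The Gapdh 3′ probe set was at 13.33 and 13.56 in LD and at 12.91 and 12.85 in DD. For both probe sets day and night overlapped in LD. Whether these levels bear on the 107 was not tested.

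The 4 probe sets named for this comparison had a smaller absolute night minus day difference in DD than in LD. Ag.3R.20.0_CDS_at was at 4.12 to 4.15 by day and 4.41 to 5.21 at night in DD, and at 4.70 to 6.25 by day and 12.55 to 13.39 at night in LD. The night excess was 0.51 in DD and 7.49 in LD (difference -6.98, SE 0.37, limma adjusted p = 4.14e-08). Ag.3R.29.0_CDS_at lay at 2.32 to 2.74 in DD, under the detection limit at all 8 time points, and entered the test through its LD values alone. Its mean in LD was 3.38 ± 0.49 by day and 9.35 ± 0.67 at night (SD, n = 4 each; limma adjusted p of the difference = 6.53e-07).

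Ag.3L.179.0_CDS_at was at 7.88 to 8.22 by day and 7.30 to 8.69 at night in DD, overlapping, and at 11.07 to 11.58 by day and 4.64 to 7.52 at night in LD. Night minus day was -0.05 in DD and -5.22 in LD (limma adjusted p of the difference = 0.000189). Ag.UNKN.96.1_CDS_a_at had a night minus day difference of -1.63 in DD, where day (6.64 to 8.11) and night (3.93 to 7.68) overlapped, and of -5.35 in LD (limma adjusted p of the difference = 0.0347, lost in 13 of 23 alternative settings). It was not flat in DD, with 3.93 and 5.05 at CT16 and CT40 and 6.80 and 7.68 at CT20 and CT44. Its DD night mean thus joined low and high hours.

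**Figure D4:**
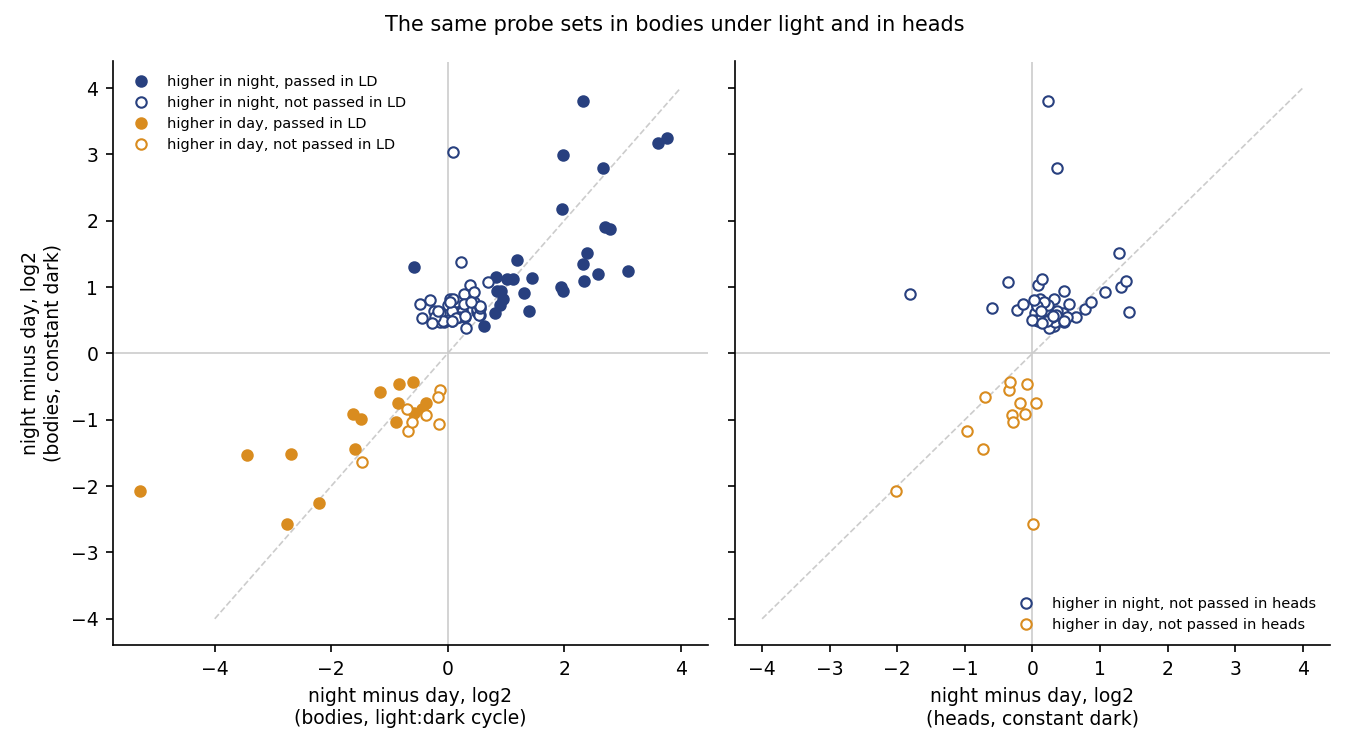
The night minus day difference (log2) in bodies in constant dark (vertical) of the 96 probe sets is set against that in bodies in a light:dark cycle (left, filled where the probe set passed there) and that in heads in constant dark (right, for the 62 detected in heads, none of which passed there). The dashed line marks equal differences; 82 of 96 had the same sign in LD and 54 of 62 in heads, where most points lie nearer 0 than in bodies.

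In heads of the same pools in constant dark, 3 of 7188 probe sets tested passed (0.0417%; 806 at an unadjusted p under 0.05), and none of them was among the 96. They were Ag.UNKN.55.0_CDS_s_at, higher at night, and Ag.2L.538.0_CDS_at and Ag.UNKN.58.0_CDS_at, higher by day. Of the 96, 62 were detected in heads, and 34, or 35.4%, were not, against 17.1% of all probe sets tested in bodies. The median night excess of the 49 detected night probe sets was 0.24 in heads and 0.64 in bodies. For the 13 detected day probe sets the median day excess was 0.30 in heads and 0.91 in bodies. The sign was the same in 54 of the 62, or 87.1%, against 63.2% of the 6075 probe sets tested in both tissues. Of the 62, 22 were at an unadjusted p under 0.05 with the same sign. The RNA controls of the heads were uneven. In heads the Gapdh 5′ probe set was at 8.04 to 8.70 by day and at 5.37 to 8.63 at night. The actin 5′ probe set in heads was at 9.59 to 9.97 by day and at 7.82 at CT44. Whether this lowered the number that passed in heads was not tested.

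Tested directly, the night minus day difference differed between heads and bodies for 41 of 8438 probe sets (0.486%), and 24 of them were among the 96, 22 of the night group and 2 of the day group. Of these 24, 16 were not detected in heads and entered the test through bodies alone, so a larger difference in bodies was fixed beforehand for them. The other 8 were detected in both tissues, and 7 of them had the larger difference in bodies. The exception, Ag.2L.175.0_CDS_s_at, named after its values were seen, had a night minus day difference of -1.81 in heads and 0.90 in bodies (limma adjusted p = 0.0118). The body values that chose the 96 also enter this test. Ag.2R.93.0_CDS_at had a head mean of 3.83 ± 0.85 by day and 4.07 ± 0.36 at night (SD, n = 4 each), a difference of 0.23 against 3.80 in bodies (limma adjusted p = 0.00241). Its head values still varied with time, from 3.12 and 3.16 at CT4 and CT28 to 4.85 and 4.21 at CT8 and CT32. The day mean in heads thus joined low and high hours. Head values of Ag.2R.93.0_CDS_at at CT4, CT28 and CT44 (3.61) were under the detection limit of 3.75 in heads, where a change may go unseen. Ag.3L.199.0_CDS_at stood at 2.23 to 2.48 in heads, below detection throughout.

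For the 2 day probe sets named for the test of heads against bodies, no such change was measured in heads. Ag.2R.2139.0_CDS_at was at 4.18 to 4.23 by day and 4.10 to 4.30 at night there, against a night minus day difference of -2.57 in bodies (limma adjusted p = 0.00555). Its head values were little above the detection limit of 3.75 in heads, where a change may go unseen. Ag.2R.2138.0_CDS_a_at, whose cluster number precedes it, lay at 2.69 to 2.83 in heads, below detection. In bodies it was at 7.50, 7.72, 7.64 and 7.21 by day and at 6.36, 5.73, 5.87 and 5.97 at night. It was 2.90-fold higher by day (log2 night minus day -1.54, SE 0.16, limma adjusted p = 0.00816), and 10.96-fold higher by day in LD, a difference between regimes that passed as well (limma adjusted p = 0.00315). The files used here give no positions for either. Ag.3R.1492.2_at, named for day against night in bodies, was under the detection limit in heads. Its night minus day difference was -0.76 in heads and -2.25 in bodies, and the difference between tissues did not pass (limma adjusted p = 0.162).

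The probe sets that changed were found on every chromosome arm and 45 of the 96 were at least 4-fold higher in bodies than in heads. Arm 2L held 23 of 1644 tested, 2R 30 of 2168, 3L 15 of 1110, 3R 20 of 1509 and X 6 of 551. Of all tested probe sets that much higher in bodies, 45 of 1423 (3.16%) passed, 31 of them higher at night and 14 by day. Of those within 4-fold 48 of 5655 (0.849%) passed, and of those at least 4-fold higher in heads 3 of 247 (1.21%). By mean level, 42 of the 2442 in the highest group of equal size passed (1.72%), 38 of 2441 in the middle (1.56%) and 16 of 2442 in the lowest (0.655%). These are counts without a test.

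By the cluster number in their names, the 96 fell into 94 clusters; which transcripts these measure is not given. For 18 of them another tested probe set carried the same arm and cluster number, in 25 pairs. The pair had the same sign in 18 of the 25, and the partner passed in 4. These 4 came from 2 clusters, in each of which 2 of the 96 were counted as each other's partner. The 19 partners that did not pass shared the sign in 13 cases, with a median difference of 0.45 (log2) in the direction of the probe set that did. Ag.3R.1492.2_at, at -2.25, was not matched by the other tested probe set of its cluster, at 0.07.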

How the data were processed

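The authors deposited log2 expression values per probe set for 104 Affymetrix arrays, made with GCRMA per the submitters' processing notes; no version of it is stated. RNA was extracted from pooled mosquitoes, per the labels' protocols. Arrays were grouped by tissue, light regime and time label. Values of the 2 arrays of a time point were averaged, and night was compared with day in limma 3.58.1 under R 4.3.3 (lmFit, eBayes, Benjamini-Hochberg over all tested probe sets, threshold 0.05), tested first on simulated data. No depth applies to arrays, and the number of arrays limits the precision. The probe sets named are the 2 in each direction with the largest difference among those passing, with the same sign on each replicate alone (and, for day against night, in each cycle). The time points, lists and rules were chosen with earlier results of these data known. The planned lists of genes and cell type markers were not used, since no probe set was paired with a gene, and sequences are not shown for that reason. Parasite probe sets, 4502 in all, set the detection limit. The alternatives tried included other filters, quantile normalization and median centring, single arrays with a replicate block, and leaving out time points.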

Additional observations from a re-analysis of the deposited data

Results flagged for a closer look

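In bodies in constant dark, the 3′ minus 5′ difference of the spike-in dap was 1.94 at CT40, apart from the other 3 night time points, which lay between 2.46 and 2.50; 14 groups of 4 were checked, of which chance sets about 1 in 20 apart. The night minus day difference differed between constant dark and the light:dark cycle for 107 probe sets, by a test of the difference itself. It differed between heads and bodies in constant dark for 41 probe sets, also by a test of the difference itself.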

How the results depend on the processing

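The count of 96 became 43 without a filter, 45 on replicate 2 alone and 35 on replicate 1 alone, 61 with cycle as a block, 161 with the spread taken over all 13 time points, 12 at an adjusted p of 0.01 and 0 with the Gapdh covariate (lowest adjusted p 0.0827). It was 93 after quantile normalization (65 higher at night, 28 by day) and 84 after median centring (60 and 24). Leaving out 1 time point gave 18 (CT40), 21 (CT8), 45 (CT28), 46 (CT44), 56 (CT4), 59 (CT32), 61 (CT16) and 64 (CT20). The main fit did not use replicate numbers to pair the samples. Deviations of same-numbered arrays correlated between time points at -0.18 to 0.36 (median 0.07, 10 of 28 pairs over 0.1), which was not tested. Fitting arrays one by one treats arrays of a time point as correlated through a random block, and with the replicate block as well 299 passed, 93 of the 96 among them, and 319 without the replicate block. In the same 2 fits the counts were 8 and 17 for the difference between cycles, 73 and 81 for early against late day, 25 and 37 for early against late night, 262 and 268 for DD against LD, 148 and 168 for heads against bodies, 807 and 871 for bodies in LD, and 85 and 95 for heads in DD. The cycle test passed 0 to 3 when leaving out 1 time point (3 without CT32). Early against late by day passed 1 without a filter and 0 to 1 when leaving out 1 time point, and at night 0 to 1. DD against LD passed 60 on replicate 1 alone and 75 to 221 when leaving out 1 time point (221 without ZT28). Its split of 72 above and 35 below 0 became 55 and 46 without a filter and 47 and 50 after median centring. Heads against bodies passed 12 without a filter, 63 after median centring, 24 on replicate 2 alone, 17 on replicate 1 alone and 13 to 34 when leaving out 1 time point, 13 without CT8, 16 without CT40, 17 without CT20, 22 without CT28, 25 without CT4, 26 without CT16 and 27 without CT32. Bodies in LD passed 280 on replicate 1 alone and 330 to 643 when leaving out 1 time point (330 without ZT40, 351 without ZT20), and the split of 217 and 333 became 268 and 299 after quantile normalization and 312 and 234 after median centring. Heads in DD passed 10 after quantile normalization, 23 after median centring and 2 to 21 when leaving out 1 time point (21 without CT44, 15 without CT4, 5 without CT16). Parasite probe sets passed 0 to 2 (2 without CT4). The dawn position of the night group became 0.554 on replicate 2 alone and 0.615 on replicate 1 alone (0.581 to 0.602 when leaving out 1 dawn time point), 0.561 after quantile normalization and 0.542 after median centring, and that of the day group 0.423 after median centring 0.337 and 0.387 on replicate 2 and 1 alone, and 0.318 without CT0 to 0.351 without CT24. The 8 probe sets named for day against night and for DD against LD, and the 4 for heads against bodies, kept the sign of the difference tested in every setting run in the comparison that named them. The DD difference of Ag.3L.179.0_CDS_at, -0.05, was 0.02 on replicate 1 and -0.12 on replicate 2. Probe sets named after their values were seen, and the 3 from heads, were not recomputed. Where a count moved, the cause was not tested. With 8 time points in the comparison and 2 arrays at each, small changes are the first to be missed, and probe sets near the detection limit carry little signal over background.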
